A study of Arabidopsis thaliana with 28 samples.

Results

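PYK10 (AT3G09260) and BGLU44 (AT3G18080) are beta-glucosidase genes of Arabidopsis thaliana, each represented on the ATH1 microarray by 1 probe set, so that 2 of the 22746 non-control probe sets are described here. The genes were chosen by name, and for what their own signals showed in these arrays: a level that differed between the organs in opposite directions, and courses over the day that parted from each other. Their levels and courses are therefore given as descriptions, with errors and without tests, and tests are kept for other genes of the same family and pathways.

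Beta-glucosidases split glucose from small molecules that plants store as harmless glucosides, and so release the active compound when cells are broken. PYK10 is the main protein of ER bodies, rod-shaped compartments of the endoplasmic reticulum that are abundant in roots and seedlings, and it has been shown in vitro to cleave scopolin, a coumarin glucoside, and indole glucosinolates. In rosette leaves ER bodies are scarce and can be induced by wounding or jasmonate. BGLU44 belongs to another branch of the same family and has been shown in vitro to act on beta-mannosides as well as beta-glucosides.

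The plants were of the accession Col-0, grown on Murashige and Skoog medium in 16 h days, and all were wounded by pin puncture at day 16, 3 h into the light. Shoots and roots were harvested 0.25, 0.5, 1, 3, 6, 12 and 24 h later, which gave 14 groups of 2 arrays, 28 in all. Unwounded plants were not analysed here, and it is not stated whether shoots, roots or both were punctured. Nothing in the labels ties the replicates to separate cultures, so that errors and p-values reflect the scatter between these arrays, which may be technical. Plants had seen 6 h of light at 3 h, 9 h at 6 h and 15 h at 12 h, while those at 24 h were back at 3 h of light. Time since wounding and time of day therefore differ together at 3, 6 and 12 h and cannot be told apart there.

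Replicate arrays had correlations over probe sets of 0.967 to 0.989 in shoots and 0.971 to 0.992 in roots, as a description of array quality. The 24 h shoot arrays stood apart in the ratio of 3-prime to 5-prime signal of 2 control transcripts, in their r2 probe sets only. The ratio was 4.15 and 6.17 for the r2 actin probe sets, against 2.22 to 3.68 on the other 12 shoot arrays, and 1.32 and 1.59 for GAPDH, against 1.07 to 1.28. For the older actin probe sets it was 9.17 and 10.4, within the 6.95 to 30.1 of the other shoot arrays. For the older GAPDH probe sets it was 2.06 and 2.73, against an overlapping 1.52 to 2.61. The ubiquitin ratio (r2 set) was 1.55 to 2.11 on shoot arrays of the first hour, 1.73 and 1.97 at 3 h, 2.37 to 2.63 at 6 and 12 h, and 2.27 and 2.52 at 24 h. Its older set gave 2.25 to 3.60 in the first hour, 3.29 and 3.37 at 3 h and 3.89 to 4.58 at 6 and 12 h. Marker genes matched the organ labels. The summed signal of the 5 measured photosynthesis markers of 22 listed (PRK, RCA, SBPASE, LHCB4.1 and LHCB4.2) was 17979 to 28654 in shoots, where both 24 h arrays (26487 and 28654) lay above all others (up to 24213), and 223 to 591 in roots. That of the 5 measured root markers of 34 listed (EXPA7, EXPA18, LBD16, LBD29 and AT3G13610) was 960.0 to 1587 in roots and 37.0 to 75.4 in shoots. The root sum was mostly AT3G13610, with a root mean of 1084. EXPA7, EXPA18, LBD16 and LBD29 had root means of 44.3 to 62.9, each above its shoot mean.

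PYK10 had its high level in roots and a lower but rising level in shoots. The shoot signal rose in the hours after wounding and was still high the next morning, whereas the root signal stayed within a narrow band. The deposited signals on the shoot arrays, replicate 1 before replicate 2, were 570.0 and 624 at 0.25 h, 699 and 650.4 at 0.5 h, and 709 and 775 at 1 h. They were 1186 and 1222 at 3 h, 1375 and 1579 at 6 h, 1398 and 1922 at 12 h, and 1504 and 1635 at 24 h. Every shoot array of 3 h or later thus lay above every shoot array of the first hour. The mean signal of 3, 6 and 12 h was 1447 and that of the first hour (0.25, 0.5 and 1 h) 671, a ratio of 2.16. The ratio of 24 h to the first hour was 2.34.

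In order of mean shoot signal the times ran 12, 24, 6, 3, 1, 0.5 and 0.25 h. The arrays of 12 and 24 h overlapped, and those of 24 and 6 h, so that these 3 times were not separated, while every later step down the order was free of overlap. The widest replicate gap was at 12 h, with 1659.6 ± 371 (mean and SD, n = 2). On the log2(signal + 10.7) scale, which damps weak signals, PYK10 in shoots was higher by 1.08 ± 0.07 (SE of the fit) at 3, 6 and 12 h than in the first hour, and by 1.22 ± 0.10 at 24 h. Of the 16263 probe sets kept for testing, 402 had a larger positive difference in the first of these comparisons and 138 in the second. The 24 h value rests on the shoot arrays with high r2 actin, GAPDH and ubiquitin ratios, and at 6 and 12 h the ubiquitin ratio was above its first-hour range. At 3 h the ubiquitin ratios lay within their first-hour range, and the PYK10 signals were 1186 and 1222. The part of RNA quality in the values at any of these times was not tested.

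In roots PYK10 was strong at all times. Its signals were 3105 and 2803 at 0.25 h, 3626 and 3464 at 0.5 h, 3584 and 3564 at 1 h, 3754 and 3813 at 3 h, 3753 and 3304 at 6 h, 3993 and 3491 at 12 h, and 3321 and 3407 at 24 h. Both arrays of 0.25 h lay below every array of the other 6 times. Those 6 times overlapped their neighbours in order of mean (3, 12, 1, 0.5, 6 and 24 h). The log2 difference of 3, 6 and 12 h from the first hour was 0.14 ± 0.07, and that of 24 h 0.01 ± 0.10.

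BGLU44 ran a course of another shape. Its shoot signal was low through the first hour, rose steeply to a peak at 6 h and was back near its starting level at 24 h. The shoot signals were 211 and 215 at 0.25 h, 182 and 172 at 0.5 h, and 234 and 183 at 1 h. They then reached 921 and 784 at 3 h, 1566.5 and 1403 at 6 h, and 1023 and 879 at 12 h, before 239.9 and 207 at 24 h. The arrays of 3, 6 and 12 h lay above those of all other times without overlap, and those of 6 h above all the rest. The 6 h mean was 7.44 times that of the first hour and 6.64 times that of 24 h.

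The order of BGLU44 in shoots was 6, 12, 3, 24, 0.25, 1 and 0.5 h. The arrays of 12 and 3 h overlapped, as did those of 24 and 0.25 h and of 0.25 and 1 h. BGLU44 was higher by 2.36 ± 0.11 (log2) at 3, 6 and 12 h than in the first hour, a difference exceeded by 39 of the 16263 probe sets. At 24 h it differed by 0.16 ± 0.16, and the arrays overlapped those of the first hour.

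The root signals of BGLU44 were weaker and had their highest mean at the same time as in shoots. They were 134 and 84.4 at 0.25 h, 56.1 and 89.0 at 0.5 h, 82.4 and 71.3 at 1 h, 108 and 141 at 3 h, 164 and 152 at 6 h, 62.5 and 72.0 at 12 h, and 70.2 and 94.2 at 24 h. Both 6 h arrays lay above all other root arrays, and the 6 h mean was 2.35 times that of 12 h. Among the other 6 root times, neighbours in order of mean (3, 0.25, 24, 1, 0.5 and 12 h) overlapped. The log2 difference from the first hour was 0.36 ± 0.11 at 3, 6 and 12 h and -0.03 ± 0.16 at 24 h. Every root signal of BGLU44 was above the 40th percentile of its array, the limit used here for low signals, which lay between 21.4 and 29.0.

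**Figure D1:**
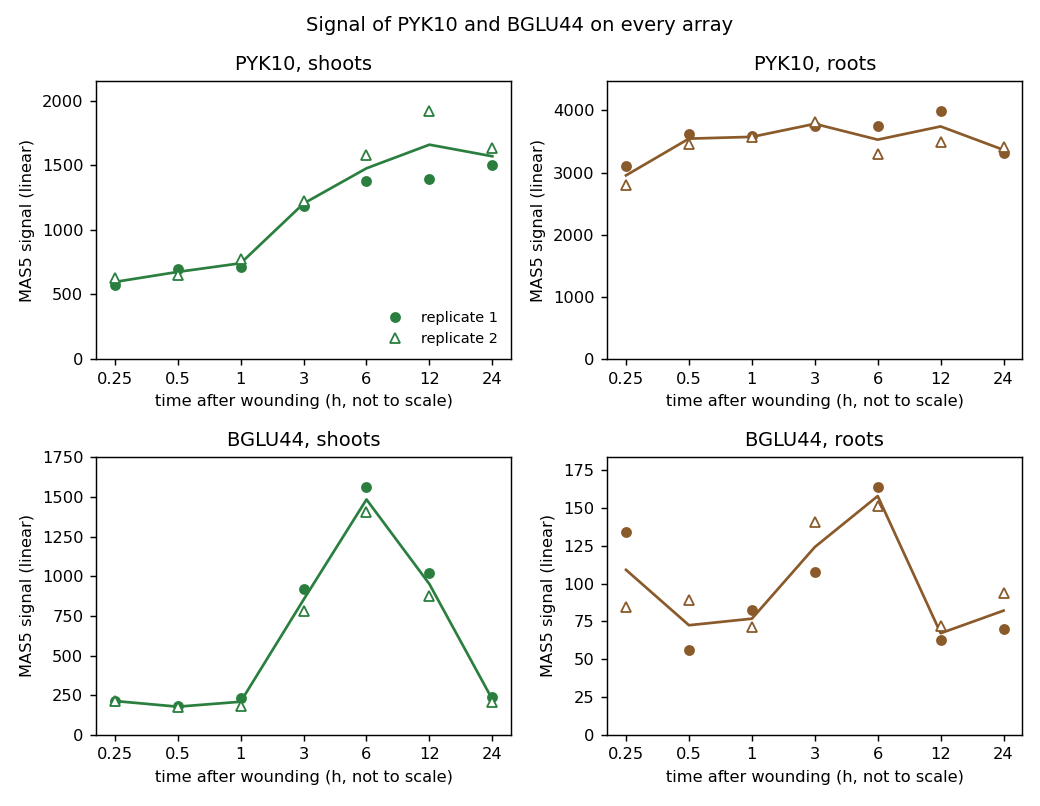
MAS5 signal of PYK10 (upper row) and BGLU44 (lower row) in shoots (left) and roots (right) at 0.25 to 24 h after wounding; filled circles are replicate 1, open triangles replicate 2, lines join group means, times are not to scale and each panel has its own linear axis from 0. PYK10 in shoots climbs from 597 at 0.25 h to 1660 at 12 h and is at 1570 at 24 h, whereas BGLU44 in shoots peaks at 1485 at 6 h and is at 223 at 24 h.

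The courses were opposed in sign in part of the day only. Between 0.5 and 6 h the shoot means of both genes rose at every step. Of the 6 steps between successive times in shoots, 2 went in opposite directions: from 0.25 to 0.5 h PYK10 changed by 0.17 (log2) and BGLU44 by -0.25, and from 6 to 12 h by 0.15 and -0.64. From 12 to 24 h PYK10 changed by -0.06 and BGLU44 by -2.04. In shoots the signs were thus opposed from 6 to 12 h and at the small first step, and not in the rise between. The PYK10 arrays of 6 and 12 h overlapped, so that its step there was not resolved, while BGLU44 fell without overlap. In roots 4 of 6 steps had opposite signs, but PYK10 moved there by at most 0.26 at any step.

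The organs were ordered in opposite ways by the genes at all 7 times. PYK10 was higher in roots and BGLU44 in shoots, with no overlap between the arrays of the organs at any time. The root signal of PYK10 was 4.95 times the shoot signal at 0.25 h, 5.25 times at 0.5 h, 4.82 times at 1 h, 3.14 times at 3 h, 2.39 times at 6 h, 2.25 times at 12 h and 2.14 times at 24 h. This ratio narrowed as the shoot level rose, beside a steady root level. The shoot signal of BGLU44 was 1.95 times the root signal at 0.25 h, 2.45 times at 0.5 h, 2.71 times at 1 h, 6.86 times at 3 h, 9.40 times at 6 h, 14.1 times at 12 h and 2.72 times at 24 h. It was highest at 12 h, when the mean root signal was lowest. These are whole organs, in which fewer cells that express a gene and less RNA per cell cannot be told apart.

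Over all times the shoot minus root difference was -1.73 ± 0.05 (log2) for PYK10 and 2.04 ± 0.07 for BGLU44. That of PYK10 depended on the scaling: after quantile normalization it was -2.32, a move larger than the replicate SD of 0.12, while the median difference of all probe sets moved from -0.27 to -0.16. Without the 24 h arrays of both organs it was -1.83.

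**Figure D2:**
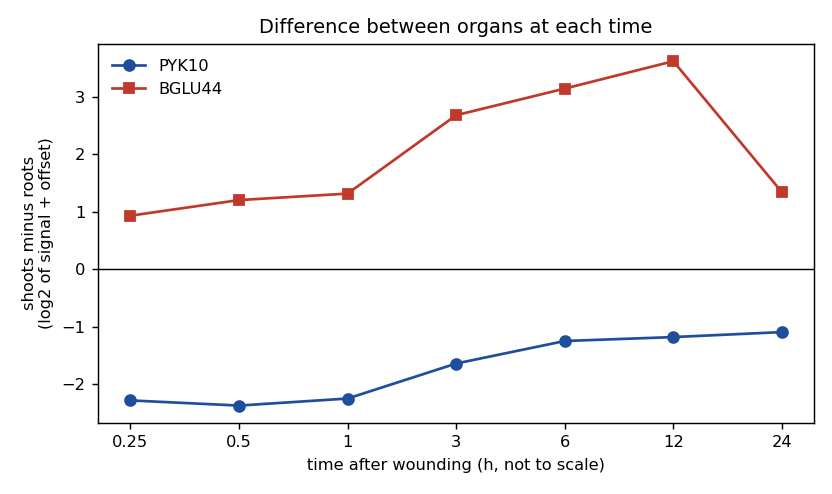
Shoots minus roots on the log2(signal + 10.7) scale for PYK10 (circles) and BGLU44 (squares) at each time after wounding, as differences of group means (2 arrays per organ). PYK10 runs from -2.29 at 0.25 h to -1.10 at 24 h, always below 0, and BGLU44 is always above 0 with its peak of 3.62 at 12 h.

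Root markers were low on all shoot arrays, with ranges that overlapped between the periods. Their summed signal there was 42.8 to 75.4 in the first hour, 37.0 to 59.9 at 3, 6 and 12 h, and 54.9 to 67.3 at 24 h. EXPA7 (an expansin of root hairs), LBD29 (a lateral root regulator) and AT3G13610 (F6'H1, which forms the precursor of scopoletin) were below the 40th percentile on all 14 shoot arrays, while EXPA18 was above it on 1 and LBD16 on 3. In the other direction, the photosynthesis markers on root arrays summed to 325 to 566 in the first hour and 223 to 577 at 3, 6 and 12 h. At 24 h they summed to 437 and 591, and these ranges overlapped. Single times differed: the sums were 566 and 332 at 0.25 h, 500 and 577 at 6 h, and 223 and 311 at 12 h. BGLU44 on these root arrays was at 134 and 84.4, 164 and 152, and 62.5 and 72.0, and at 70.2 and 94.2 at 24 h. The part of shoot signal on root arrays in the BGLU44 values was not tested.

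Genes of the ER body system, which form and organise the compartment of PYK10, were tested in the same comparisons. A call is a Benjamini-Hochberg adjusted p under 0.05 over all 16263 probe sets in limma. In shoots 7 of the 7 genes that were kept differed between the first hour and 3, 6 and 12 h: the lectins JAL22, JAL23, JAL33 and JAL34, the ER body protein NAI2 and the glucosidase BGLU25 were higher, and the transcription factor NAI1 was lower. NAI1 is needed for ER body formation and PYK10 expression in seedlings, and lectins of the JAL family are found in complexes with PYK10. Over all probe sets 45.3% were called in this comparison, 28.6% higher and 16.7% lower, so that calls were common. NAI2 was no longer called without shoots 0.25 h replicate 2 (0.22, limma adjusted p = 0.0563). The median log2 difference of the 7 genes was 0.68, beside 0.08 over all probe sets. The list names 20 genes, of which 10 had a probe set with 1 gene, and BGLU19, BGLU24 and ATA27 were too weak to be kept.

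NAI1 was lower in shoots at 3, 6 and 12 h than in the first hour, when its mean rose. Its signal was 63.3 ± 22.0 at 0.25 h, 119.5 ± 47.9 at 0.5 h and 138 ± 29.2 at 1 h (SD, n = 2). It had fallen to 44.6 ± 2.20 by 3 h and was 54.3 ± 2.83 at 6 h and 30.9 ± 10.8 at 12 h, and 52.2 ± 6.95 the next morning. The log2 difference of 3, 6 and 12 h from the first hour was -1.06 ± 0.14 (limma adjusted p = 3.83e-06). At 24 h it was -0.81 ± 0.20 (limma adjusted p = 0.00426), a call that ended without shoots 24 h replicate 1 (-0.70, adjusted p = 0.0859). In roots the group means of NAI1 lay between 170.1 and 232, with differences of -0.05 ± 0.14 at 3, 6 and 12 h and 0.16 ± 0.20 at 24 h that were not called.

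The lectins differed in the time of their highest shoot mean. JAL34 went from 254 ± 77.4 at 0.25 h to 839.6 ± 62.4 at 3 h and was at 516 ± 46.3 at 24 h, with a log2 difference at 3, 6 and 12 h of 1.28 ± 0.13 (limma adjusted p = 6.34e-08). JAL23 was highest at 3 h too, at 372 ± 19.1 against 49.7 ± 9.46 at 0.25 h (1.17 ± 0.13, adjusted p = 1.41e-07). Both had lower means at the 3 later times. JAL22 and JAL33 had their highest mean at 24 h. JAL22 ran from 130.2 ± 14.7 at 0.25 h to 339.9 ± 53.3 at 24 h, a log2 difference of 1.18 ± 0.14 from the first hour (adjusted p = 1.33e-06). JAL33 ran from 96.1 ± 5.38 to 199.8 ± 4.42 (0.89 ± 0.15, adjusted p = 0.000121). All 4 lectins belong to 1 family, and probe sets of close relatives such as JAL33 and JAL34 may share signal.

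At 24 h in shoots 6 of the 7 ER body genes were called, 4 higher and 2 lower, with a median of 0.71 beside 0.075 over all probe sets. Over all probe sets 33.6% were called there, 19.8% higher and 13.8% lower. Omitting shoots 24 h replicate 1 left 5 calls, without NAI1, and omitting replicate 2 left 4, without BGLU25 and JAL23. BGLU25, highest at 3 h with 309 ± 42.5, was at 53.7 ± 5.41 at 24 h, below the first hour by -0.55 ± 0.14 (limma adjusted p = 0.0035), a call lost without shoots 24 h replicate 2 (-0.47, adjusted p = 0.0591).

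In roots 2 of 7 were called at 3, 6 and 12 h, both higher, beside 11.1% of all probe sets, 5.63% higher and 5.46% lower. They were NAI2, by 0.46 ± 0.11 (limma adjusted p = 0.0102), and JAL22, by 0.42 ± 0.10 (adjusted p = 0.00835). NAI2 had its root peak at 12 h, with 1717 ± 173 against 887 ± 67.9 at 0.25 h. The median of the 7 was 0.19, beside 0.0052 over all probe sets. At 24 h in roots limma called 0 of 7, with 1 at an unadjusted p under 0.05 and a median of 0.16 beside 0.022. Over all probe sets 0.191% were called there, 0.0676% higher and 0.123% lower.

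By organ, 6 of the 7 ER body genes were lower in shoots, like PYK10, and JAL23 was higher. Of all probe sets 88.2% were called between the organs, 31.3% higher in shoots and 56.9% lower, and the median of the 7 was -1.62 beside -0.27. JAL33 averaged 136 ± 38.5 in shoots and 1724 ± 263 in roots (SD, 14 arrays each), a difference of -3.59 ± 0.07 (limma adjusted p = 3.01e-22). NAI2 differed by -2.77 ± 0.07 and JAL34 by -2.70 ± 0.08. JAL23 ranged from 43.0 to 385 in shoots and from 6.66 to 16.3 in roots, a difference of 2.78 ± 0.08. A gene that passed the filter through 1 organ alone, as JAL23 did, was favoured by the filter to differ here. These organ counts are therefore a description, and such genes are given without a p.

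**Figure D3:**
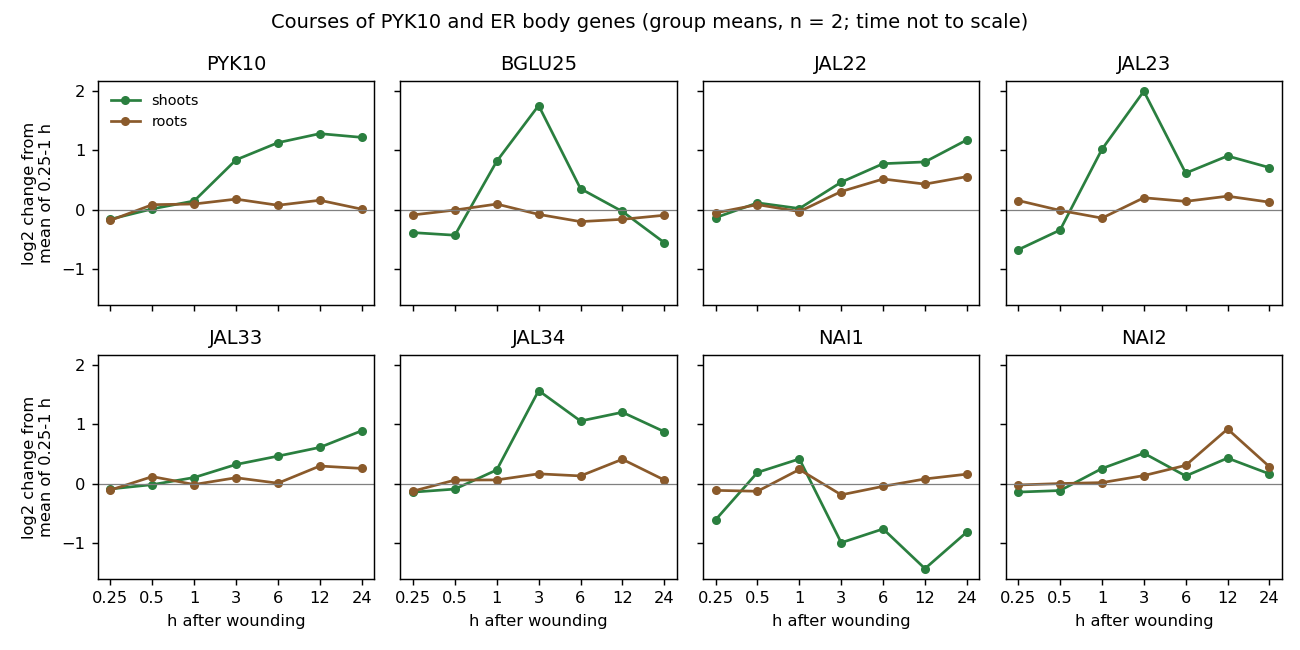
Log2 change of group means (n = 2) from the mean of 0.25, 0.5 and 1 h for PYK10 and the 7 ER body genes kept, in shoots (green) and roots (brown), against hours after wounding (not to scale). In shoots PYK10, JAL22 and JAL33 are high at 24 h, JAL23, JAL34 and BGLU25 have their highest mean at 3 h, and NAI1 lies below 0 from 3 h on.

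Other members of the beta-glucosidase family showed a variety of courses. Of 46 listed genes of the family and its relatives, 20 had a probe set with 1 gene and 8 of these were strong enough to be kept. In shoots at 3, 6 and 12 h, 3 of the 8 were higher than in the first hour, 1 was lower and 4 were not called, with a median of 0.16. The 4 of 8 stand beside 45.3% of all probe sets (28.6% higher, 16.7% lower), a share near theirs. BGLU42, which releases scopoletin from its glucoside, was higher by 0.72 ± 0.08 (limma adjusted p = 1.04e-07). BGLU25 was higher by 0.69 ± 0.10 (adjusted p = 3.98e-06) and BGLU16, named after its value was seen, by 0.65 ± 0.10 (adjusted p = 2.18e-05). BGLU40 was lower by -0.74 ± 0.10 (adjusted p = 1.28e-06).

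BGLU42 and BGLU16 had their highest shoot mean at 6 h, the time of the BGLU44 peak. BGLU42 was at 64.5 ± 4.25 at 0.25 h, 142 ± 15.3 at 6 h and 59.0 ± 0.149 at 24 h. BGLU16 was at 159 ± 43.3, 283 ± 0.226 and 188 ± 29.5 at these times. BGLU40 had its lowest mean then, with 186 ± 9.68 at 6 h against 541 ± 109 at 1 h and 506 ± 2.55 at 24 h.

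In roots 2 of 8 were called at 3, 6 and 12 h, both lower, with a median of -0.24, beside 5.46% of all probe sets lower and 11.1% in either direction. BGLU42 was lower by -0.47 ± 0.08 (limma adjusted p = 0.00034). BGLU15, a flavonol glucosidase, was lower by -0.31 ± 0.09 (adjusted p = 0.0332), a call that 9 of the 28 omissions of a single array ended, all of root arrays, with adjusted p-values of 0.0514 to 0.121, as did an offset of 1 (0.065). At 24 h limma called 0 of 8 in roots, beside only 0.191% of all probe sets. Of the 8, 0 had an unadjusted p under 0.05, with a median of 0.0031.

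At 24 h in shoots 3 of 8 were called, with a median of 0.27, a share near the 33.6% of all probe sets. BGLU15 (0.59 ± 0.13, limma adjusted p = 0.00161) and BGLU33 (0.37 ± 0.14, adjusted p = 0.0373) were higher and BGLU25 was lower. BGLU33 was no longer called in 5 omissions of a shoot array, and was at 0.23 (adjusted p = 0.348) without shoots 24 h replicate 2. Its call also ended with quantile normalization (adjusted p = 0.0643) and with an offset of 1 (0.296).

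Between the organs all 8 were called, 2 higher in shoots and 6 lower, with a median of -0.35, beside 88.2% of all probe sets (31.3% higher, 56.9% lower). BGLU40 (3.53 ± 0.06) and BGLU33 (3.21 ± 0.06) were higher in shoots, like BGLU44. BGLU46, which acts on glucosides of lignin precursors (-2.99 ± 0.12), and BGLU15 (-2.65 ± 0.06) were lower, like PYK10. BGLU40 and BGLU33 passed the filter through shoots alone, and BGLU45 and BGLU46 through roots alone, so that the filter favoured a difference in these 4. After quantile normalization BGLU25 (-0.07) and BGLU42 (-0.06) were no longer called. BGLU43, the gene next to BGLU44 in the TAIR10.1 annotation and of the same family, had signals of 0.291 to 12.4 in shoots and 0.354 to 5.09 in roots, below the low limit on all arrays.

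**Figure D4:**
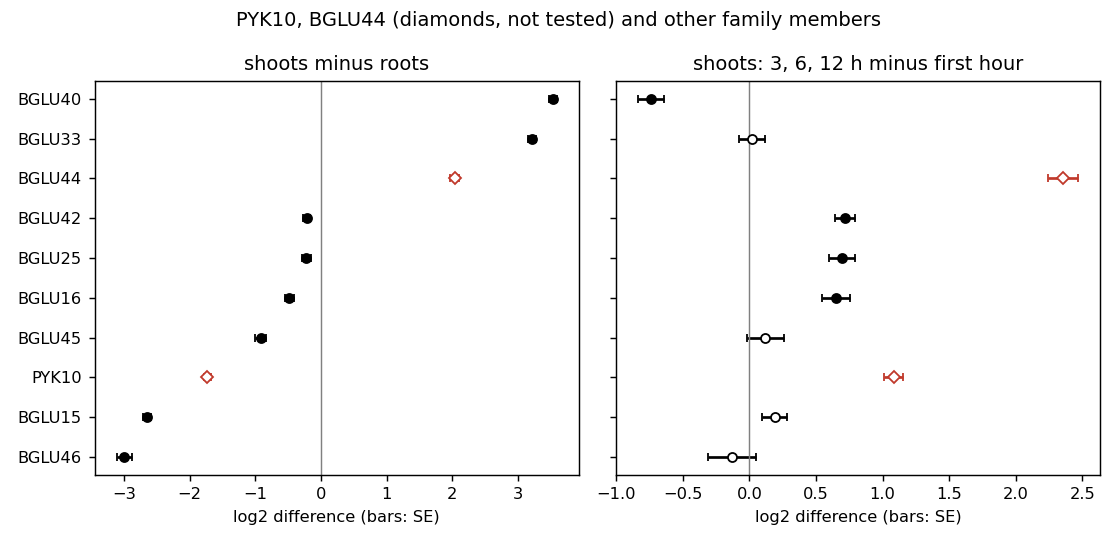
Log2 differences with SE for PYK10 and BGLU44 (open diamonds, not tested) and the 8 other family members kept (circles, filled where limma called them), between organs and, in shoots, between 3, 6 and 12 h and the first hour. In the shoot comparison BGLU44 is at 2.36 and PYK10 at 1.08, and BGLU40 lies lowest at -0.74.

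Genes around the substrates of PYK10 were measured in small part. Of 41 listed genes of glucosinolates and coumarins 5 had a probe set with 1 gene, and all 5 were kept. In shoots at 3, 6 and 12 h 4 of 5 were called, 1 higher and 3 lower, with a median of -0.35, beside 45.3% of all probe sets (28.6% higher, 16.7% lower). The glucosinolate transporters GTR1 (-1.32 ± 0.22, limma adjusted p = 0.00011) and GTR2 (-0.46 ± 0.09, adjusted p = 0.000133) and UGT74B1, a glucosyltransferase of glucosinolate synthesis (-0.35 ± 0.11, adjusted p = 0.0121), were lower. UGT72E1, of the monolignol glucosyltransferases, was higher (0.94 ± 0.09, adjusted p = 2.26e-08). It was counted in this list, while UGT72E2 and UGT72E3 were counted with the mannan and monolignol genes. UGT74B1 was no longer called without shoots 0.25 h replicate 1 (adjusted p = 0.0614) or shoots 0.5 h replicate 2 (0.0617). GTR1 in shoots was at 1019.6 ± 184 at 0.5 h and 207 ± 1.70 at 3 h.

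In roots 3 of these 5 were called at 3, 6 and 12 h, all lower, with a median of -0.44, beside 5.46% of all probe sets lower and 11.1% in either direction. They were GTR1 (-1.50 ± 0.22, limma adjusted p = 0.000327), GTR2 (-0.49 ± 0.09, adjusted p = 0.00053) and UGT72E1 (-0.44 ± 0.09, adjusted p = 0.00332). The transporters were thus lower in both organs, while UGT72E1 was higher in shoots and lower in roots.

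At 24 h in shoots 3 of these 5 genes were called, with a median of -0.26, beside 33.6% of all probe sets. UGT72E1 was higher (0.85 ± 0.13, limma adjusted p = 3.34e-05). GTR1 (-1.14 ± 0.32, adjusted p = 0.0108) was no longer called without either 24 h array (adjusted p = 0.0719 and 0.0707). GTR2 (-0.33 ± 0.12, adjusted p = 0.0397) was at -0.19 (adjusted p = 0.372) without replicate 2, and lost its call with quantile normalization (0.0715) and without a filter (0.0514). With single arrays omitted the count ran from 1, without 24 h replicate 2, to 5, without 0.25 h replicate 2. In roots limma called 0 of 5 at 24 h, beside only 0.191% of all probe sets. Of the 5, 0 had an unadjusted p under 0.05, with a median of -0.07. By organ all 5 were called, with a median of -1.20, beside 88.2% of all probe sets. GTR1 was higher in shoots (1.66 ± 0.15) and 4 were lower, AT3G13610 most (-6.01 ± 0.11), which passed the filter through roots.

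Genes of mannan synthesis and of lignin precursors were listed for the possible substrates of BGLU44 and its relatives. Of 30 listed, 7 had a probe set with 1 gene and 6 were kept. In shoots at 3, 6 and 12 h, while BGLU44 was high, 1 of 6 was called, with a median of 0.03, beside 45.3% of all probe sets. UGT72E1, also a monolignol glucosyltransferase and higher then by 0.94 ± 0.09, was counted in the list before and not in this one. CSLA03, of the mannan synthase family, was lower by -0.65 ± 0.11 (limma adjusted p = 3.89e-05), from 188 ± 0.295 at 0.5 h to 55.5 ± 5.63 at 12 h. The count was 2 without roots 24 h replicate 1 and also without roots 24 h replicate 2.

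In roots at 3, 6 and 12 h 1 of 6 was called, with a median of -0.20, beside 11.1% of all probe sets. It was CSLA03 (-0.34 ± 0.11, limma adjusted p = 0.0467), a call that did not hold in 20 of the 28 omissions of a single array, with adjusted p-values of 0.0506 to 0.156. At 24 h limma called 0 of 6 in shoots (median 0.24), beside 33.6% of all probe sets. In roots it called 0 of 6 (median -0.0058), beside only 0.191% of all probe sets. Each organ had 1 at an unadjusted p under 0.05, and in shoots 1 was called without shoots 24 h replicate 2. Between the organs 5 of 6 were called, 1 higher in shoots and 4 lower, with a median of -1.46, beside 88.2% of all probe sets. UGT72E2, a monolignol glucosyltransferase, had -4.03 ± 0.08 (adjusted p = 1.43e-22), and CSLA01, of the mannan synthase family, 0.65 ± 0.10. CSLA01 passed the filter through 1 shoot group alone, and BGLU45, BGLU46 and UGT72E3 through roots alone. The filter thus favoured a difference in these 4 of the 5.

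The change to 3, 6 and 12 h was also compared between the organs, by an interaction term, for which 31.7% of all probe sets were called, and the change to 24 h likewise, with 16.2%. Among the listed genes BGLU42 had the change to 3, 6 and 12 h more positive in shoots by 1.19 ± 0.11 (limma adjusted p = 3.12e-08), and NAI1 more negative, by -1.01 ± 0.20 (adjusted p = 0.000691).

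The genes whose courses were most like those of PYK10 and BGLU44 were ranked by Pearson correlation over the 14 group means, each organ centred on its own mean, among 8877 probe sets kept with 1 gene. These values describe 14 points from shared arrays. For PYK10 they were CFM3B, a plastid RNA-splicing factor (r = 0.963), CHX20, a cation exchanger of guard cells (0.959), AT1G25530 (0.954), AT3G19660 (0.951) and AT3G56310 (0.950). In shoots CHX20 went from 43.4 ± 1.86 at 0.25 h to 120.3 ± 5.63 at 6 h and 113 ± 14.9 at 24 h, and its highest root group mean was 1.46. All its root arrays lay below the low limit, so that its root course was near the floor. AT3G56310 went from 379 ± 141 through 565 ± 48.0 to 577 ± 92.4 at these times in shoots. AT3G19660 was weak in shoots, with means of 5.66, 18.6 and 21.1 at these times and replicates of 5.14 and 24.7 at 3 h. Both its shoot arrays lay below the low limit at 0.25, 0.5, 1, 6 and 12 h, so that its correlation rests in part on signals near the floor. By Spearman correlation 3 of these 5 stayed among the 5 highest.

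For BGLU44 they were PIFI, a chloroplast protein of electron transport after illumination (r = 0.975), DPE1, a plastid enzyme of starch breakdown (0.975), UGT80B1, a sterol glucosyltransferase (0.974), AT4G14270 (0.969) and AT4G30660 (0.962). DPE1 in shoots was at 46.8 ± 12.3 at 0.25 h, 428 ± 8.07 at 6 h and 56.6 ± 3.67 at 24 h. PIFI ran from 737 ± 223 through 2386 ± 89.3 to 982 ± 201 at the same times. Both were thus high at 6 h and down again at 24 h, like BGLU44. In roots both PIFI arrays lay below the low limit at every time but 6 h, so that its root course was near the floor. AT4G30660 went from 38.1 ± 6.43 through 593 ± 58.5 to 48.8 ± 2.33. By Spearman correlation 2 of these 5 stayed among the 5 highest.

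**Figure D5:**
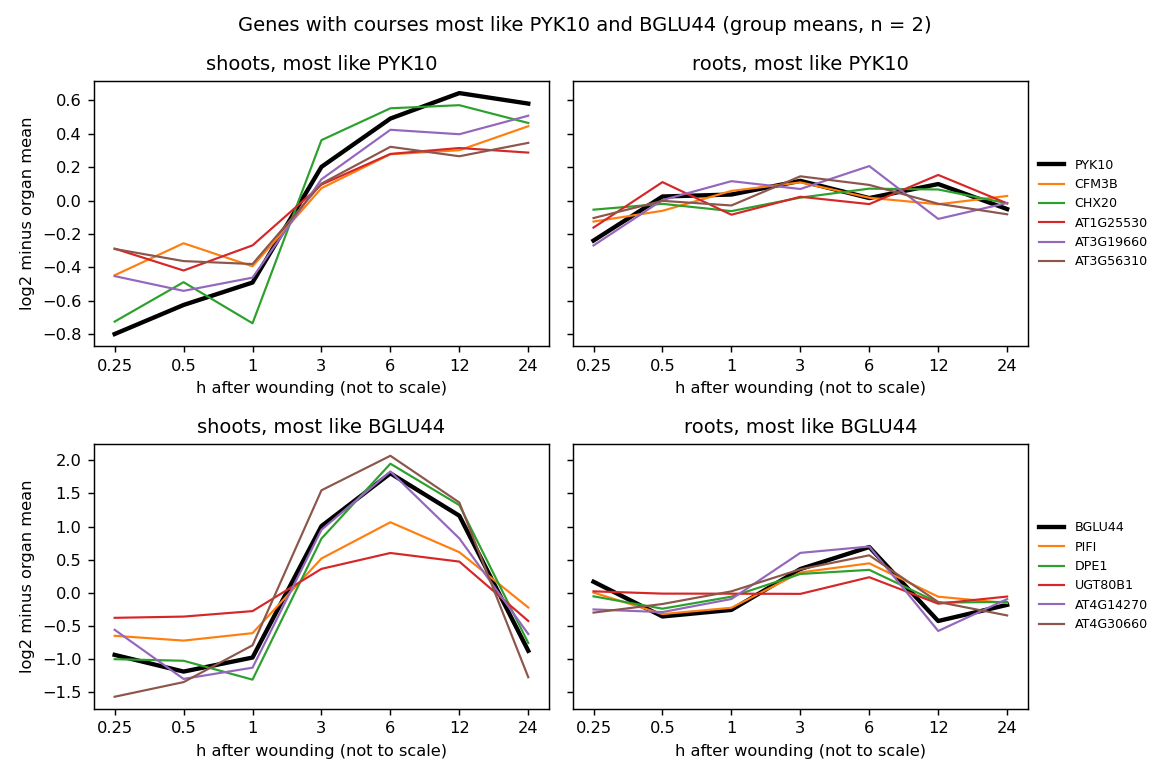
Group means (n = 2) of log2(signal + 10.7) minus the mean of the organ, for PYK10 and BGLU44 (thick black lines) with the 5 genes most like each (coloured lines), in shoots (left) and roots (right), against hours after wounding (not to scale). The genes like PYK10 are higher in shoots from 3 h to 24 h than in the first hour, and those like BGLU44 have their highest shoot mean at 6 h and are down at 24 h.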

How the data were processed

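The authors deposited intensity, a linear value for every probe set on every array; MAS5 is named in the submitters' processing notes, while its version and a genome build are not given in the sources used here. Since the 2% trimmed mean was 100.007 to 100.01 on every array, signals were used as scaled. The number of arrays limits the precision.

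Of 22810 probe sets, 64 controls were left out. Signals became log2(signal + 10.7), where 10.7 was the 25th percentile of the signals; this understates changes of weak genes. Probe sets above the 40th percentile on both arrays of at least 1 group were kept (16263). R 4.3.3 and limma 3.58.1 fitted 1 mean per organ and time over 28 arrays (14 residual degrees of freedom), with eBayes trend and robust. Contrasts were shoots against roots, 3, 6 and 12 h against the mean of 0.25, 0.5 and 1 h, 24 h against that mean, and the differences of the last 2 between organs. On simulated data for 3, 6 and 12 h in shoots (16263 probe sets), 95 of 100 changes of 1 (log2) and 100 of 100 of 2 were recovered, with 11 false calls. The simulated noise was independent between probe sets and only these changes were put in, whereas 45.3% of probe sets were called in the data. These rates therefore check the code and need not hold for the data.

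Gene names come from the platform annotation (13513 probe sets with 1 gene, 503 with several, 8794 unnamed here), with 13436 updated through the TAIR10.1 RefSeq table; probe sets with several genes were not named. Members and lists (beta-glucosidases, ER bodies, glucosinolates and coumarins, mannan and monolignols, organ markers) were chosen with earlier results of these data known. Named were, per list and contrast, the 2 largest rises and falls among the calls, and the 5 genes most like each member; further called genes of the lists were named after their values were seen; a clause of the rule on protein identity was not applied, as sequences were not used here. The alternatives tried were quantile scaling, an offset of 1, other filters, plain eBayes, the replicate block, fits of 1 organ, omission of the 24 h arrays or of each array, a threshold of 0.01 and Spearman correlation.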

Additional observations from a re-analysis of the deposited data

Results flagged for a closer look

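For 9 genes of the lists the change between the first hour and 3, 6 and 12 h differed between shoots and roots in the interaction test of limma (adjusted over all 16263 probe sets, of which 31.7% were called). The genes kept were 8 beta-glucosidases, 7 of ER bodies, 5 of glucosinolates and coumarins and 6 of mannan and monolignols. BGLU25, BGLU45 and BGLU46 were shared between lists. The count was not tested against the share of all probe sets. The values are the shoot change minus the root change in log2. They were 1.38 ± 0.13 for UGT72E1 (limma adjusted p = 4.56e-08), 1.19 ± 0.11 for BGLU42 (3.12e-08), 1.04 ± 0.18 for JAL34 (0.000174) and 0.98 ± 0.18 for JAL23. BGLU25 had 0.84 ± 0.14 (6.12e-05), BGLU16 0.72 ± 0.15 (0.000675) and BGLU15 0.51 ± 0.13 (0.0057). All of these were more positive in shoots. More negative in shoots were NAI1, at -1.01 ± 0.20 (0.000691), and BGLU40, at -0.57 ± 0.13. JAL23 and BGLU40 were below the low limit in all 7 root groups, where the offset damps any change. Both passed the filter through shoots alone, so that their differences rest on the shoot values. They are included in the 9 but given without a p. BGLU42 and UGT72E1 rose in shoots and fell in roots, each by a call of its own.

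For the change from the first hour to 24 h the organs differed for 6 of the same kept genes, beside 16.2% of all probe sets, and this count was not tested either. They were UGT72E1 (0.84 ± 0.18, limma adjusted p = 0.00319), JAL34 (0.81 ± 0.26, 0.0367), JAL33 (0.63 ± 0.22, 0.04999), JAL22 (0.62 ± 0.20, 0.0382), BGLU15 (0.59 ± 0.19, 0.0354) and NAI1 (-0.98 ± 0.29, 0.025). These 6 rest on the 24 h shoot arrays, whose r2 actin and GAPDH ratios stood apart, and the part of RNA quality was not tested. The same differences were not tested for PYK10 and BGLU44, which were chosen for their courses.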

How the results depend on the processing

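The log2 differences of PYK10 and BGLU44 moved by less than the replicate SD under every alternative run, apart from the organ difference of PYK10 after quantile normalization (-2.32). Quantile normalization also called 1 ER body gene at 24 h in roots, in place of 0. With an offset of 1, the calls at 3, 6 and 12 h in roots were 1 for the beta-glucosidases (2 in the report) and 0 for the mannan and monolignol genes (1 in the report). Without a filter, 18 of the 20 beta-glucosidases with a probe set were called between organs (8 of 8 in the report). Those added were too weak to be kept in the report. The share of all probe sets called in that fit is not given here, so that the 18 are no result about the family. Without a filter 0 mannan and monolignol genes were called at 3, 6 and 12 h in roots. The filter at the 60th percentile, which tests fewer genes, left 2 calls of mannan and monolignol genes between organs (5 in the report). Their call in roots at 3, 6 and 12 h was 0 with plain eBayes, 0 with the replicate block, 0 at a threshold of 0.01 and 2 without the 24 h arrays. At that threshold 1 beta-glucosidase and 1 ER body gene were called at 3, 6 and 12 h in roots (2 each in the report), and 1 glucosinolate or coumarin gene at 24 h in shoots (3 in the report). The cause of these moves was not tested. With single arrays omitted, calls at 3, 6 and 12 h in roots ran from 1 to 2 for the beta-glucosidases and from 0 to 1 for the mannan and monolignol genes, whose shoot calls ran from 1 to 2. At 24 h they ran from 0 to 1 for ER body genes in roots, 1 to 5 for glucosinolate and coumarin genes in shoots, 0 to 1 for these in roots, and 0 to 1 for mannan and monolignol genes in shoots. The replicate numbers gave no clear sign of pairing, though these values do not settle it. Deviations of same-numbered arrays correlated at -0.277 to 0.190 over 91 pairs of groups, with 10 over 0.1. Of these 10, 6 were among the 21 pairs within roots and 3 among the 21 within shoots. With single arrays omitted, differences at 24 h in roots that lay near 0 changed sign: that of PYK10 ran from -0.02 to 0.03 and that of BGLU44 from -0.22 to 0.15. No called gene of the lists changed sign under these alternatives.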
